A study of Mus musculus with 12 samples.

Results

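Cells hold their volume with the help of genes that carry or make osmolytes. Those described here were Slc6a6, Slc5a3, Slc6a12, Slc6a8, Akr1b3, Slc12a2 and Slc14a1, chosen by name with earlier results of these data known. For each one, the transcript cluster (the set of probes that reports a gene) annotated to its symbol was followed across both intestinal segments and both genotypes. Of these 7 genes, 6 had a cluster, 1 each, among the 25341 clusters with a gene symbol. Akr1b3, the aldose reductase that makes sorbitol, had no cluster under its symbol and was not analysed here.

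Epithelial cells were released from the mouse intestine with EDTA, and their total RNA was hybridised to Affymetrix Mouse Gene 2.0 ST arrays. The 12 arrays formed 4 groups of 3 mice each, all untreated and 11 weeks old. They were small intestinal epithelial cells from the ileum (S-IECs) of Nfat5IEC-KO and of Nfat5fl/fl mice, and large intestinal epithelial cells from the colon (L-IECs) of Nfat5IEC-KO and of Nfat5fl/fl mice. Both genotypes carried the floxed Nfat5 alleles, and Nfat5IEC-KO mice also carried Cre recombinase under the villin promoter, which is active in intestinal epithelium. The arrays compared the genotypes within each segment, and they also allowed the segments to be compared within each genotype.

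When the fluid around a cell becomes hypertonic, the cell first takes up ions and then replaces them with small organic osmolytes that do not disturb proteins, among them taurine, myo-inositol, betaine, sorbitol and glycerophosphocholine. The transcription factor NFAT5, also called TonEBP, is known from the mammalian kidney medulla for inducing the transporters and enzymes that build up these solutes, through DNA elements called TonE. The inner core of that element is TGGAAA. In the gut, Slc12a2, the basolateral sodium-potassium-chloride cotransporter NKCC1, is best known for loading crypt cells with chloride for secretion.

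Promoter windows are shown because TonE is the element by which NFAT5 is known to act on osmolyte genes in the kidney medulla. They are those of Slc5a3 and Slc6a12, the 2 of the 7 genes matched in the table of RefSeq windows used here (GRCm38.p6). Windows of Slc6a6, Slc6a8, Akr1b3, Slc12a2 and Slc14a1 were not used here. A window covers 250 bases before and 50 bases after an annotated start. Both strands were searched for TonE, which contains TGGAAA, and for TGGAAA alone, and a TonE match is in capitals. Slc6a12 is shown at chr6:121342324-121342623 and Slc5a3 at chr16:92058072-92058371, both on the plus strand.
Slc6a12: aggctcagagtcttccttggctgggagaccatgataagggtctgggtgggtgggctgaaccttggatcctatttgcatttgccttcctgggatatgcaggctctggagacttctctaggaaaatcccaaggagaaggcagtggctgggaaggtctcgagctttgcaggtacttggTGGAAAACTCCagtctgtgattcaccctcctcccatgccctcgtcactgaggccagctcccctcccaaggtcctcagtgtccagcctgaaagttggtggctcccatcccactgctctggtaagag
Slc5a3: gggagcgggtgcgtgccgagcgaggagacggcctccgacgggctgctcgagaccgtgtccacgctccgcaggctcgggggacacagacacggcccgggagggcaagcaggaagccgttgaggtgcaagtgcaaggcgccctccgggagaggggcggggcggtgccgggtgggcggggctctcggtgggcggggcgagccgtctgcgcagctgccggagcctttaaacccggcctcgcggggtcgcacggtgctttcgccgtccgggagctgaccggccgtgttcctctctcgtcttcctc

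The Slc6a12 window held 1 TonE match, TGGAAAACTCC, whose first base lay 75 bases before the start. The Slc5a3 window held 0 matches to TonE and 0 to TGGAAA. Elements outside a window were not searched. TonE occurred in 4.96% of the 32851 windows of the table and TGGAAA in 21.4%, so a match is a description of these letters only. The other 4 windows of Slc6a12, at later annotated starts, held none.

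Nfat5, the targeted gene, was checked first. Its cluster read 6.923, 6.903 and 6.997 on the log2 scale in Nfat5IEC-KO L-IECs, against 7.489, 7.451 and 7.539 in Nfat5fl/fl L-IECs. The groups did not overlap, with Nfat5IEC-KO lower, as held for 6.24% of all clusters tested. The difference was -0.55 ± 0.09 (SE, limma adjusted p = 0.544). In S-IECs labelled Nfat5IEC-KO it read 8.08, 7.84 and 8.01, against 8.03, 8.03 and 8.17 in Nfat5fl/fl S-IECs. These groups overlapped (-0.10 ± 0.12, SE, limma adjusted p = 0.763). The cluster thus separated the genotypes without overlap in L-IECs and not in S-IECs. Which exons are floxed was not stated in the sources read, so how far a knockout should lower this cluster is not known. The S-IEC arrays are called by their label throughout. Segment markers followed the labels: the mean of 6 ileal markers was 10.4 to 10.6 on the S-IEC arrays and 5.44 to 5.76 on the L-IEC arrays, and that of 5 colonic markers was 4.92 to 6.29 on the S-IEC and 8.47 to 8.88 on the L-IEC arrays. The mean of 7 epithelial markers was 10.2 to 10.4 on all 12 arrays, and that of 6 endothelial markers was 3.82 to 3.96. That of 5 leukocyte markers was 5.44 to 5.89 on the S-IEC and 4.90 to 5.12 on the L-IEC arrays. The mean of 6 stromal markers was 5.07 to 5.33. At an adjusted p under 0.05 by limma, 4 of 5 leukocyte markers were higher in the ileum of Nfat5IEC-KO mice, against 10.0% of all clusters. In Nfat5fl/fl mice 3 of 5 were, against 7.20%. The part of leukocytes in the segment differences was not tested. On the S-IEC arrays, Nfat5fl/fl replicates 2 and 3 stood apart in the mean of the colonic markers, at 6.29 and 5.96, against 4.92 to 5.27 on the other 4. They are called high in colonic markers below by this mean alone. Car1, a carbonic anhydrase of the colon, differed by -3.07 between the S-IEC genotypes, and the other 4 colonic markers by -0.36 to 0.26. Arrays of one group correlated with r of 0.988 to 0.992 over all clusters, and array medians ran between 4.49 and 4.57.

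In the genotype comparisons 0 of the 6 measured members passed an adjusted p of 0.05 by limma in either segment. Slc6a6, Slc5a3 and Slc12a2 stood lower on every array labelled Nfat5IEC-KO than on every Nfat5fl/fl array of the ileum, where 10.4% of all clusters tested did so. Slc6a8 stood higher, as did 9.80% of all clusters. In the colon Slc6a6 and Slc5a3 stood lower again and Slc12a2 stood higher, each without overlap, against 6.24% and 5.83% of all clusters. Slc6a12 and Slc14a1 overlapped between genotypes in both segments.

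**Figure D1:**
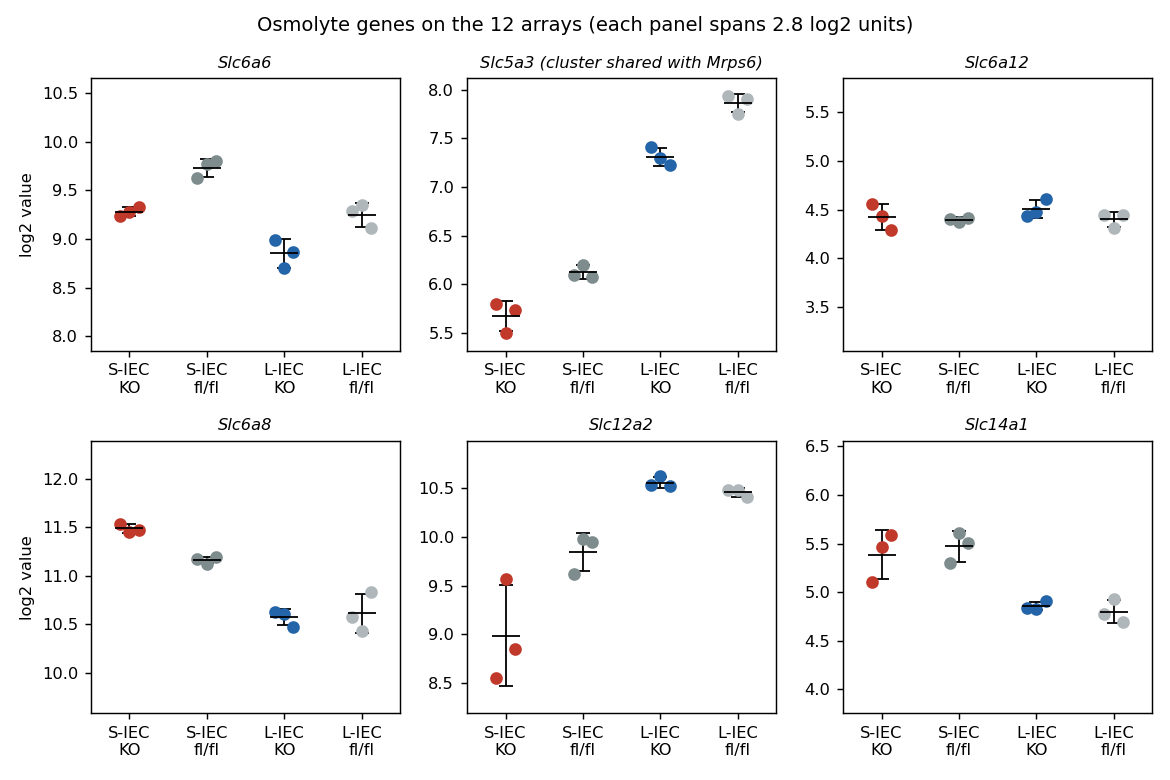
Log2 value of each measured member (vertical axis, 1 panel a gene) on the 12 arrays, by segment and genotype. Points are arrays, and the black mark and bar are the mean and SD of 3 mice. Slc6a6 and Slc5a3 lie lower in KO than in fl/fl in both segments, while the KO points of Slc12a2 in S-IECs spread from 8.55 to 9.56.

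Slc6a6 encodes TauT, the sodium- and chloride-dependent transporter that brings taurine into cells, and lies at chr6:91684048-91759063 (GRCm38.p6). In S-IECs its log2 values were 9.24, 9.27 and 9.33 on the arrays labelled Nfat5IEC-KO, against 9.63, 9.77 and 9.80 on the Nfat5fl/fl arrays. In L-IECs they were 8.99, 8.70 and 8.86 in Nfat5IEC-KO mice, against 9.28, 9.35 and 9.11 in Nfat5fl/fl mice. The highest KO array was below the lowest control array in both segments. The difference was -0.45 ± 0.11 in S-IECs (SE, n = 3 a group; limma adjusted p = 0.138), the level in Nfat5fl/fl mice being 1.37-fold higher. In L-IECs the difference was -0.40 ± 0.12 (SE, limma adjusted p = 0.744), the level in Nfat5fl/fl mice being 1.32-fold higher. The S-IEC difference minus the L-IEC difference, called the segment contrast, was -0.055, with a 95% interval of -0.38 to 0.27 (limma adjusted p = 0.942).

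Slc5a3 encodes SMIT1, the sodium-coupled transporter of myo-inositol. It was measured only through a cluster annotated to both Slc5a3 and Mrps6, which encodes a protein of the small subunit of the mitochondrial ribosome. On GRCm38.p6 Slc5a3 spans chr16:92058322-92087473 and Mrps6 spans chr16:92058336-92112227, so 99.95% of Slc5a3 lies inside Mrps6 and the starts are 14 bases apart. Signal from these genes cannot be told apart in the values used here. The cluster read 5.80, 5.50 and 5.73 in S-IECs labelled Nfat5IEC-KO, against 6.10, 6.20 and 6.08 in Nfat5fl/fl S-IECs. In L-IECs it read 7.41, 7.30 and 7.23 in Nfat5IEC-KO mice, against 7.93, 7.75 and 7.91 in Nfat5fl/fl mice. All KO arrays again lay below all control arrays of their segment. The difference was -0.45 ± 0.12 in S-IECs (SE, limma adjusted p = 0.161). In L-IECs it was -0.55 ± 0.10 (SE, limma adjusted p = 0.668), the 91st lowest of all 25341 clusters tested, with the Nfat5fl/fl level 1.47-fold higher. The segment contrast was 0.10, with a 95% interval of -0.22 to 0.43 (limma adjusted p = 0.863).

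Because of the shared cluster, the other mitochondrial ribosomal protein genes are given beside it. Among the 71 that had a cluster of their own, the median genotype difference was -0.17 in S-IECs, where 9 lay below the Slc5a3 and Mrps6 cluster. In L-IECs the median was 0.04 and the lowest was -0.31, so 0 of 71 lay below it. The part of Mrps6 in the cluster's difference was not tested.

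**Figure D2:**
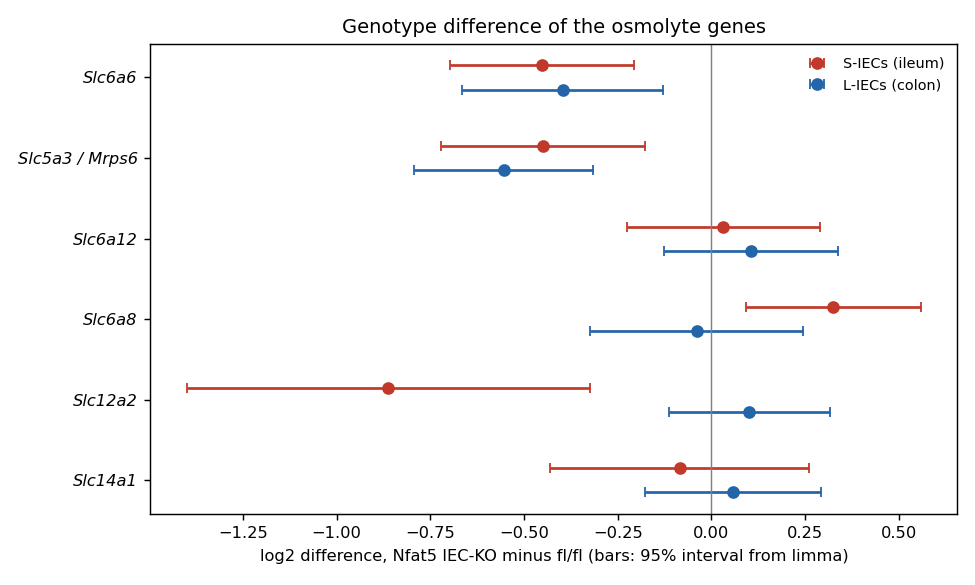
Log2 difference of each measured member (horizontal axis), KO minus fl/fl, in S-IECs (red) and L-IECs (blue). Points are limma estimates from 3 arrays a group and bars their unadjusted 95% intervals. Slc6a6 and Slc5a3 lie left of 0 in both segments, and Slc12a2 is at -0.86 in S-IECs and 0.10 in L-IECs.

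Lower values without overlap in both segments thus belonged to 2 of the 6 measured members, Slc6a6 and the cluster of Slc5a3 and Mrps6. Over all clusters tested this held for 274, or 1.08%. The same 2 had an unadjusted p under 0.05 by limma and a lower value in both segments, which held for 0.505% of all clusters. Members were chosen with earlier results of these data known, so these shares do not test them as a set. Mice of both segments bear the same genotype labels, and whether 1 mouse gave both samples is not stated.

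Slc6a12 encodes BGT1, which carries betaine and GABA, and is a textbook NFAT5 target in the kidney. It lies at chr6:121342574-121365773, and its window above held the TonE match. Its cluster was dim, with a mean of 4.43 over the 12 arrays, close to the array medians. It read 4.556, 4.438 and 4.291 in S-IECs labelled Nfat5IEC-KO, against 4.404, 4.370 and 4.416 in Nfat5fl/fl S-IECs. In L-IECs it read 4.44, 4.47 and 4.61 in Nfat5IEC-KO mice, against 4.44, 4.31 and 4.44 in Nfat5fl/fl mice. The groups overlapped in both segments. The difference was 0.032 (95% interval -0.22 to 0.29) in S-IECs, with a limma adjusted p of 0.933. In L-IECs it was 0.11 (95% interval -0.13 to 0.34), with a limma adjusted p of 0.891. At a signal this low on the array, a difference may not be detectable.

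Slc6a8 encodes the creatine transporter, which draws creatine into cells along with sodium and chloride, and lies at chrX:73673133-73682502. It read 11.54, 11.45 and 11.48 in S-IECs labelled Nfat5IEC-KO, against 11.18, 11.12 and 11.19 in Nfat5fl/fl S-IECs. All labelled KO arrays lay above all control arrays, and the difference was 0.32 ± 0.10 (SE, limma adjusted p = 0.212). In L-IECs it read 10.63, 10.61 and 10.48 in Nfat5IEC-KO mice, against 10.57, 10.43 and 10.83 in Nfat5fl/fl mice. Those groups overlapped, with a difference of -0.040 (95% interval -0.32 to 0.24, limma adjusted p = 0.970). The segment contrast was 0.36 ± 0.15 (SE, limma adjusted p = 0.417). Enterocytes are the absorptive cells of the villus. The mean of 5 of their markers stood 0.38, 0.27 and 0.36 above its Nfat5fl/fl mean on S-IEC KO replicates 1, 2 and 3. On these arrays Slc6a8 stood 0.37, 0.29 and 0.31 above its own. The genotype differences of the 5 markers ran from 0.076 to 0.84, with a median of 0.23. At an unadjusted p under 0.05 by limma, 2 of them were higher, against 5.81% of all clusters. In bulk samples a change in the share of a cell type and a change in RNA per cell cannot be told apart. The part of enterocytes in the Slc6a8 difference was not tested.

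Slc12a2, at chr18:57878512-57946821, had an SD of 0.52 in S-IECs labelled Nfat5IEC-KO, the largest of any measured member within a group. In S-IECs it read 8.55, 9.56 and 8.85 on the arrays labelled Nfat5IEC-KO, against 9.62, 9.98 and 9.95 on the Nfat5fl/fl arrays. Every labelled KO array was below every control array, replicate 2 by the least. The difference was -0.86 ± 0.24 (SE, limma adjusted p = 0.166), the 95th lowest of all clusters tested, with the Nfat5fl/fl level 1.82-fold higher. Without KO replicate 2 it was -1.15, with a limma adjusted p of 0.0355, where 0.892% of all clusters were called, against 0.00789% with all arrays. Leaving out any other array gave a limma adjusted p of 0.206 to 0.401. In L-IECs the gene read 10.53, 10.63 and 10.52 in Nfat5IEC-KO mice, against 10.48, 10.48 and 10.41 in Nfat5fl/fl mice. There all KO arrays lay just above all control arrays, with a difference of 0.10 ± 0.09 (SE, limma adjusted p = 0.890). The segment contrast was -0.96 ± 0.28 (SE, limma adjusted p = 0.258). Without S-IEC KO replicate 2 it was -1.25, with a limma adjusted p of 0.0192, where 0.943% of all clusters were called. Of the 12 fits that each left out 1 array, this was the 1 that passed, and their adjusted p ran up to 0.430. Lower in S-IECs and higher in L-IECs without overlap held for 0.659% of all clusters tested.

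The S-IEC arrays on which Slc12a2 was low were also low for crypt cell markers. Slc12a2 deviated from the Nfat5fl/fl mean by -1.302, -0.285 and -0.999 on KO replicates 1, 2 and 3. On the same arrays the mean of 5 cycling cell markers deviated by -0.97, -0.22 and -0.80, and that of 6 crypt stem cell markers by -0.77, -0.17 and -0.58. The mean of 6 Paneth cell markers deviated by -1.38, -0.39 and -1.43, and that of 6 goblet cell markers by -0.84, -0.15 and -0.59. Replicate 2 was thus the nearest to the controls in all of them. At an unadjusted p under 0.05, 4 of 5 cycling, 4 of 6 stem, 6 of 6 Paneth and 3 of 6 goblet markers were lower in S-IECs labelled Nfat5IEC-KO, against 8.23% of all clusters tested. In L-IECs the Slc12a2 arrays deviated by 0.073, 0.168 and 0.062, and the cycling markers by 0.151, 0.001 and 0.122. There the stem cell markers deviated by -0.064, -0.068 and 0.041, the Paneth cell markers by -0.030, 0.685 and 0.325, and the goblet cell markers by -0.076, 0.176 and 0.040. Paneth cells are absent in the colon. The mean of their markers was 5.26 to 6.49 on the L-IEC arrays, against 9.11 to 10.65 on the S-IEC arrays. Deviations of this list in L-IECs are thus not read as Paneth cells. In L-IECs replicate 2 was thus the highest for Slc12a2 and for the Paneth and goblet markers, and the lowest for the cycling and stem markers. For Slc6a6 and Slc5a3, S-IEC KO replicate 2 was not the nearest to the controls. Slc6a6 deviated by -0.496, -0.458 and -0.402, and Slc5a3 by -0.33, -0.62 and -0.39. The mean of the 5 colonic markers deviated by -0.58, -0.79 and -0.46 on these S-IEC arrays. Their genotype differences had a median of -0.027, and Car1 alone stood at -3.07. Replicate 2 was the farthest from the controls for this marker mean and for Slc5a3. With both Nfat5fl/fl S-IEC arrays high in colonic markers left out, a setting chosen after seeing the data in which the lone Nfat5fl/fl array was assumed to vary like the others, the S-IEC difference was -0.35 for Slc6a6, -0.42 for Slc5a3, 0.31 for Slc6a8 and -0.64 for Slc12a2. The limma adjusted p of these 4 was then 0.834 to 0.845. The parts of crypt cells and of the colonic markers in these differences were not tested.

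**Figure D3:**
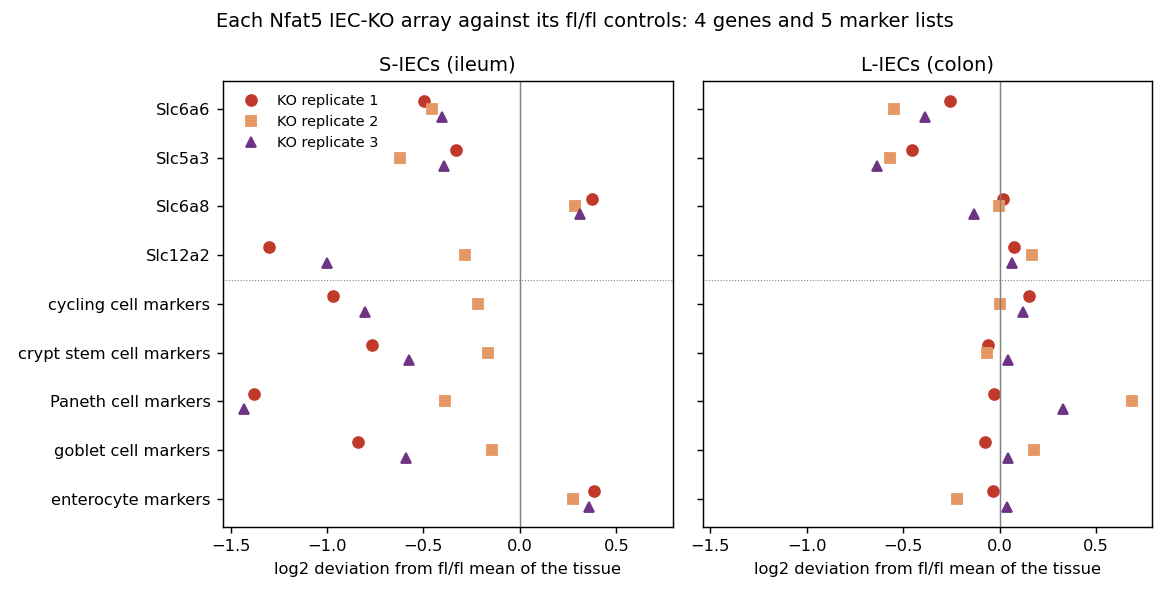
Log2 deviation (horizontal axis) of each KO array from the fl/fl mean of its segment, for 4 members and the means of 5 marker lists, in S-IECs (left) and L-IECs (right). Symbols are KO replicates. In S-IECs the square of replicate 2 is nearest to 0 for Slc12a2 (-0.28) and for the cycling, stem, Paneth and goblet markers.

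Slc14a1 encodes UT-B, a urea channel of red blood cells, vessels and some epithelia, and lies at chr18:78100091-78142119. It read 5.10, 5.47 and 5.58 in S-IECs labelled Nfat5IEC-KO, against 5.30, 5.61 and 5.50 in Nfat5fl/fl S-IECs. In L-IECs it read 4.84, 4.83 and 4.91 in Nfat5IEC-KO mice, against 4.77, 4.93 and 4.70 in Nfat5fl/fl mice. Both pairs overlapped. The difference was -0.085 (95% interval -0.43 to 0.26, limma adjusted p = 0.855) in S-IECs and 0.058 (95% interval -0.18 to 0.29, limma adjusted p = 0.953) in L-IECs. The mean of 4 erythroid markers ran from 4.26 to 4.79 over the 12 arrays, with 1 of 4 at a mean of 5 or more in each group.

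Counted over the 6 measured members, the S-IEC genotype comparison had 0 with an adjusted p under 0.05 by limma, against 0.00789% of all clusters tested. At an unadjusted p under 0.05 by limma, 1 was higher and 3 were lower, where 5.81% and 8.23% of all clusters were. Without overlap 1 was higher and 3 were lower, against 9.80% and 10.4% of all clusters. In L-IECs 0 had an adjusted p under 0.05, as had 0% of all clusters, and 0 were higher and 2 lower at an unadjusted p under 0.05, against 2.97% and 3.35%. There 1 was higher and 2 were lower without overlap, against 5.83% and 6.24%. In S-IECs the median difference of the members was -0.27, beside 0.014 over all clusters tested, and in L-IECs these medians were 0.009 and 0.001. The methods' t-test on the same values called 0 members after adjustment in either segment, and at an unadjusted p under 0.05 it had 1 higher and 2 lower in S-IECs and 2 lower in L-IECs. For the segment contrast, 0 of 6 members had an adjusted p under 0.05 by limma (0% of all clusters), and 1 was higher and 1 lower at an unadjusted p under 0.05, against 4.53% and 6.30%.

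Some calls changed with the setting of the fit. With all 12 arrays in 1 fit, limma gave an adjusted p in S-IECs of 0.0481 for Slc6a6, 0.0481 for Slc5a3 and 0.0421 for Slc12a2, where 2.25% of all clusters were called. With a mean-variance trend and robust moderation it gave 0.0260 for Slc6a6 and 0.0340 for Slc6a8 in S-IECs, and 0.0453 for Slc5a3 in L-IECs, where 1.89% and 0.0513% of all clusters were called. With the filter on dim clusters it gave 0.04996 for Slc6a6 in S-IECs, where 2.19% of the 11747 clusters left were called.

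The segments differed more than the genotypes did in the number of calls. Of the 6 measured members, 5 passed an adjusted p of 0.05 by limma, 3 with the higher level in the ileum and 2 with the higher level in the colon, and these were the same genes with the same sign in both genotypes. Among all clusters tested, 10.0% were higher and 14.7% lower in Nfat5IEC-KO mice, and 7.20% and 10.4% in Nfat5fl/fl mice. A call of the same sign in both genotypes held for 14.0%.

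**Figure D4:**
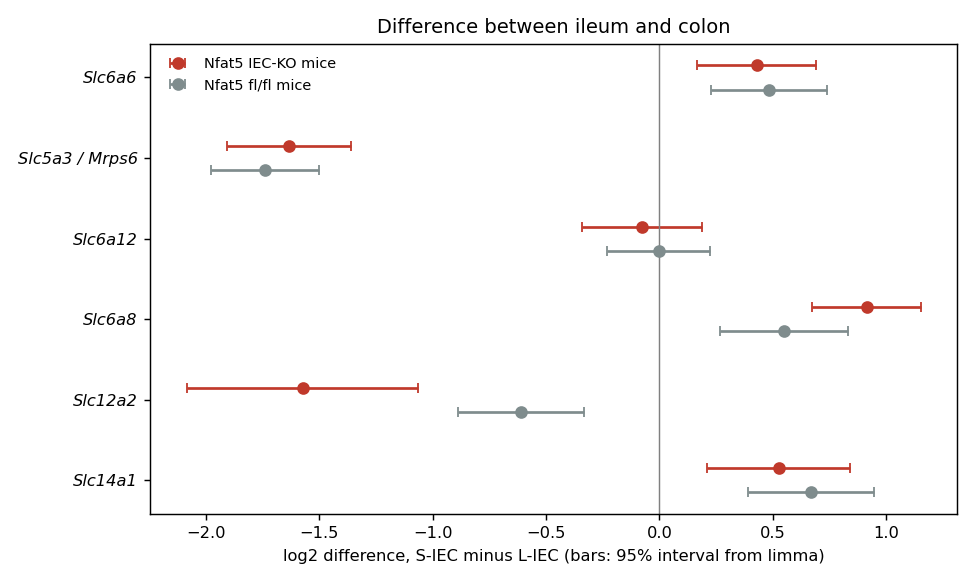
Log2 difference of each measured member (horizontal axis), S-IEC minus L-IEC, in Nfat5IEC-KO (red) and Nfat5fl/fl mice (grey). Points are limma estimates from 3 arrays a group and bars their unadjusted 95% intervals. Slc5a3 lies at -1.63 and -1.74, and Slc12a2 at -1.57 and -0.61.

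The cluster of Slc5a3 and Mrps6 was lower in the ileum. Its difference, S-IEC minus L-IEC, was -1.63 ± 0.12 in Nfat5IEC-KO mice (SE, limma adjusted p = 1.38e-05), so that the colon was 3.10-fold higher. In Nfat5fl/fl mice it was -1.74 ± 0.11 (SE, limma adjusted p = 5.22e-06), with the colon 3.34-fold higher. None of the 71 other mitochondrial ribosomal protein genes lay as low in either genotype, their medians being -0.32 in Nfat5IEC-KO and -0.12 in Nfat5fl/fl mice. Slc12a2 was lower in the ileum as well, with a difference of -1.57 ± 0.23 in Nfat5IEC-KO mice (SE, limma adjusted p = 0.000871) and -0.61 ± 0.12 in Nfat5fl/fl mice (SE, limma adjusted p = 0.00818). The colon was 2.98-fold higher in Nfat5IEC-KO and 1.53-fold higher in Nfat5fl/fl mice, and the gap between the genotypes is the segment contrast tested above.

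The other 3 called members were higher in the ileum. Slc6a6 differed by 0.43 ± 0.12 in Nfat5IEC-KO mice (SE, limma adjusted p = 0.0245) and 0.48 ± 0.11 in Nfat5fl/fl mice (SE, limma adjusted p = 0.0166). Slc6a8 differed by 0.91 ± 0.11 in Nfat5IEC-KO mice (SE, limma adjusted p = 0.000239) and 0.55 ± 0.12 in Nfat5fl/fl mice (SE, limma adjusted p = 0.0146). Slc14a1, the urea channel, differed by 0.53 ± 0.14 in Nfat5IEC-KO mice (SE, limma adjusted p = 0.0225) and 0.67 ± 0.12 in Nfat5fl/fl mice (SE, limma adjusted p = 0.00487). Its L-IEC side was dim, averaging 4.86 in Nfat5IEC-KO and 4.80 in Nfat5fl/fl mice. The arrays did not overlap between segments for any of the 3 genes in either genotype, as was the case, with the ileum higher, for 18.8% of all clusters in Nfat5IEC-KO and 15.2% in Nfat5fl/fl mice. Slc5a3 and Slc12a2 did not overlap either, with the ileum lower, against 21.8% and 18.9%. Slc6a12 overlapped, at -0.077 in Nfat5IEC-KO mice (95% interval -0.34 to 0.19) and -0.003 in Nfat5fl/fl mice (95% interval -0.23 to 0.22).

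Some of these calls rested on single arrays. For Slc6a6 in Nfat5fl/fl mice the adjusted p by limma was 0.0556 without S-IEC replicate 2, 0.0604 without S-IEC replicate 3 and 0.0618 without L-IEC replicate 3. In Nfat5IEC-KO mice it was 0.0711 without S-IEC replicate 3, 0.0954 without L-IEC replicate 2 and 0.0643 without L-IEC replicate 3. For Slc14a1 in Nfat5IEC-KO mice it was 0.0537 to 0.0745 without any 1 array other than S-IEC replicate 1. For Slc6a8 in Nfat5fl/fl mice it was 0.0516 without L-IEC replicate 1. The calls of Slc5a3 and Slc12a2 in both genotypes, of Slc6a8 in Nfat5IEC-KO mice and of Slc14a1 in Nfat5fl/fl mice did not depend on any 1 array. With both Nfat5fl/fl S-IEC arrays high in colonic markers left out, the difference in Nfat5fl/fl mice was 0.38 for Slc6a6, 0.56 for Slc6a8 and 0.50 for Slc14a1, with limma adjusted p of 0.240, 0.147 and 0.132. That of Slc5a3 was -1.76 (limma adjusted p = 0.00116) and that of Slc12a2 -0.84 (limma adjusted p = 0.0190), and 9.80% of all clusters were called.

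Read as an order over the 4 groups, Slc6a6 was highest in Nfat5fl/fl S-IECs at 9.73 ± 0.09 (SD, n = 3), followed by S-IECs labelled Nfat5IEC-KO at 9.28 ± 0.05 and Nfat5fl/fl L-IECs at 9.25 ± 0.12, whose arrays overlapped, and then Nfat5IEC-KO L-IECs at 8.85 ± 0.15. Slc5a3 was highest in Nfat5fl/fl L-IECs at 7.86 ± 0.10, then in Nfat5IEC-KO L-IECs at 7.31 ± 0.09, Nfat5fl/fl S-IECs at 6.13 ± 0.07 and S-IECs labelled Nfat5IEC-KO at 5.68 ± 0.15, with no overlap between neighbours. For Slc12a2 the order was Nfat5IEC-KO L-IECs at 10.56 ± 0.06, Nfat5fl/fl L-IECs at 10.46 ± 0.04, Nfat5fl/fl S-IECs at 9.85 ± 0.20 and S-IECs labelled Nfat5IEC-KO at 8.99 ± 0.52, again with no overlap between neighbours. For Slc6a8 it was S-IECs labelled Nfat5IEC-KO at 11.49 ± 0.04, Nfat5fl/fl S-IECs at 11.16 ± 0.04, and then Nfat5fl/fl L-IECs at 10.61 ± 0.20 and Nfat5IEC-KO L-IECs at 10.57 ± 0.08, which overlapped. For Slc14a1 it was Nfat5fl/fl S-IECs at 5.47 ± 0.16, S-IECs labelled Nfat5IEC-KO at 5.39 ± 0.25, Nfat5IEC-KO L-IECs at 4.86 ± 0.04 and Nfat5fl/fl L-IECs at 4.80 ± 0.12, with overlap inside each segment only. For Slc6a12 the means of all 4 groups lay between 4.397 and 4.505, and neighbours overlapped. Levels of different clusters are not set against each other.

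Genes related to the members by pathway were described from 9 lists, of which 55 of 61 genes had a cluster. Of these 55, 0 passed an adjusted p of 0.05 by limma in either genotype comparison. At an unadjusted p under 0.05 by limma, 8 were higher and 7 lower in S-IECs labelled Nfat5IEC-KO, against 5.81% and 8.23% of all clusters, and 1 was higher and 4 lower in Nfat5IEC-KO L-IECs, against 2.97% and 3.35%. Their medians were 0.030 in the ileum and 0.033 in the colon.

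**Figure D5:**
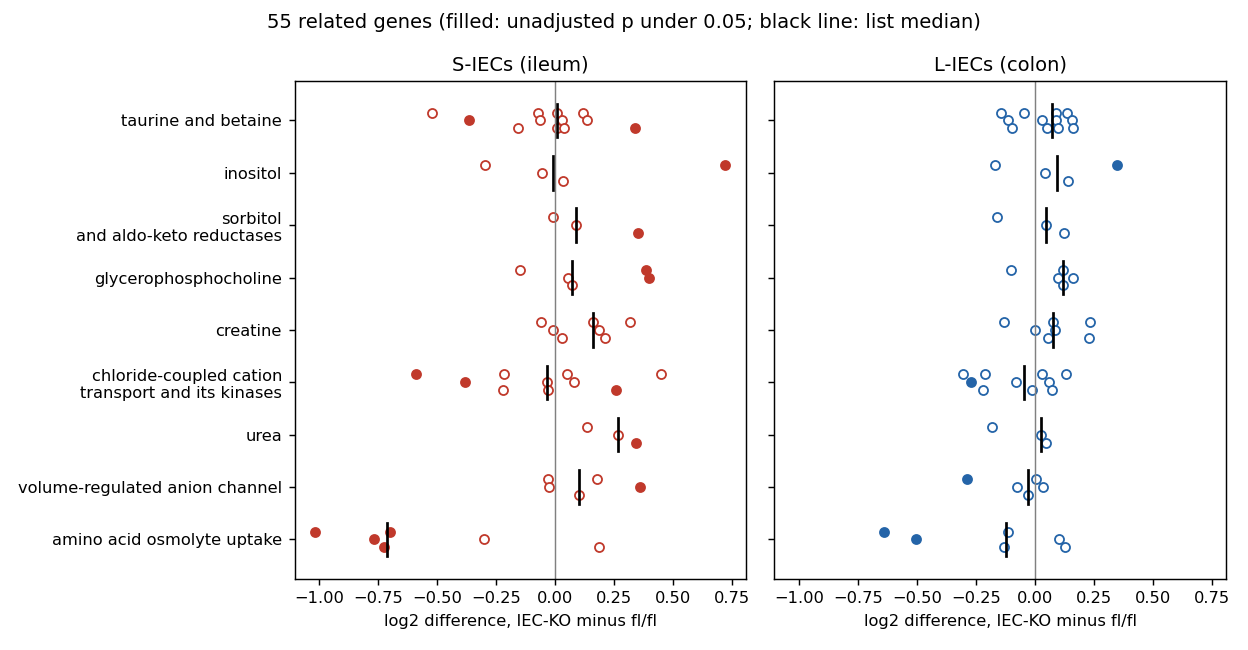
Log2 difference (horizontal axis), KO minus fl/fl, of the 55 related genes by list, in S-IECs (left) and L-IECs (right). Filled points have an unadjusted limma p under 0.05, and black lines are list medians. The median of the amino acid uptake list is -0.71 on the left and -0.12 on the right.

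Amino acid uptake gave the lowest list median. Cells also use neutral amino acids as osmolytes, and Slc38a2 encodes SNAT2, a sodium-coupled carrier known to be induced by hypertonicity and by amino acid shortage. It averaged 7.62 ± 0.27 in S-IECs labelled Nfat5IEC-KO, against 8.64 ± 0.02 in Nfat5fl/fl S-IECs (SD, n = 3 each), with a difference of -1.02 ± 0.15 (SE, limma adjusted p = 0.112). In L-IECs it averaged 8.75 ± 0.04 in Nfat5IEC-KO mice, against 9.25 ± 0.10 in Nfat5fl/fl mice (SD, n = 3 each), with a difference of -0.50 ± 0.10 (SE, limma adjusted p = 0.668). The arrays did not overlap in either segment. Slc7a5, which encodes the large neutral amino acid exchanger LAT1, differed by -0.77 in S-IECs (limma adjusted p = 0.121). Slc1a4, a neutral amino acid transporter, differed by -0.64 in L-IECs (limma adjusted p = 0.769), with overlapping arrays. At an unadjusted p under 0.05 by limma, 4 of the 6 genes of this list were lower in the ileum and 2 in the colon, where 8.23% and 3.35% of all clusters were. Crypt cell markers were also lower on the S-IEC arrays labelled Nfat5IEC-KO, as given above. The part of crypt cells in the differences of this list was not tested.

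The inositol list had values of both signs. Slc5a11 encodes SMIT2, another sodium-coupled inositol carrier, and averaged 8.53 ± 0.06 in S-IECs labelled Nfat5IEC-KO, against 7.81 ± 0.17 in Nfat5fl/fl S-IECs (SD, n = 3 each). Its difference was 0.72 ± 0.12 there (SE, limma adjusted p = 0.122) and 0.35 ± 0.13 in L-IECs (SE, limma adjusted p = 0.769), without overlap in either. That sign is opposite to the cluster of Slc5a3 and Mrps6 in both segments. In L-IECs Slc5a11 was dim, averaging 4.87 in Nfat5IEC-KO and 4.53 in Nfat5fl/fl mice. Between segments Slc5a11 was higher in the ileum, by 3.66 in Nfat5IEC-KO mice (limma adjusted p = 1.45e-07) and 3.28 in Nfat5fl/fl mice (limma adjusted p = 2.11e-07). Slc2a13, which encodes the proton-coupled inositol carrier HMIT, was lower in the ileum, with a difference of -1.82 in Nfat5IEC-KO (limma adjusted p = 2.68e-05) and -1.63 in Nfat5fl/fl mice (limma adjusted p = 0.000119).

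The other lists held smaller genotype differences. In S-IECs the smallest p of each list belonged to Ado, a thiol dioxygenase that makes hypotaurine (-0.36), Khk, which phosphorylates fructose (0.35), Gpcpd1, which cleaves glycerophosphocholine (0.38), Ckm, the muscle creatine kinase (0.32), the kinase gene Wnk4 (-0.59), Arg1, arginase 1 (0.34), and Lrrc8b, a subunit of the volume-regulated anion channel (0.36). Their limma adjusted p ran from 0.174 for Gpcpd1 to 0.395 for Ckm. Stk39, which encodes SPAK, the kinase that phosphorylates and activates NKCC1, differed by -0.38 in S-IECs (limma adjusted p = 0.276). In L-IECs the corresponding genes were Chdh (0.16), Khk (-0.16), Gdpd1 (0.16), Gatm (0.23), Wnk1 (-0.27), Arg2 (-0.18) and Lrrc8c (-0.29), with limma adjusted p from 0.768 for Wnk1 to 0.886 for Khk. Group means were all dim for Ckm, at 4.46 to 4.85, for Arg1, at 4.53 to 4.87, and for Lrrc8c, at 4.16 to 4.77.

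Between segments 13 related genes were higher and 20 lower in the ileum of Nfat5IEC-KO mice at an adjusted p under 0.05 by limma, and 10 and 14 in Nfat5fl/fl mice, where 10.0% and 14.7%, and 7.20% and 10.4%, of all clusters were. Slc6a20a encodes an imino acid carrier that also takes up betaine, and it was higher in the ileum with a difference of 4.78 in each genotype. Also higher there were Khk, by 2.56 in Nfat5IEC-KO and 2.04 in Nfat5fl/fl mice, Arg2, the mitochondrial arginase, by 2.48 in Nfat5IEC-KO and 2.03 in Nfat5fl/fl mice, and Lrrc8b, by 1.78 in Nfat5IEC-KO and 1.42 in Nfat5fl/fl mice. The aldo-keto reductase gene Akr1b8 was lower in the ileum, with differences of -1.75 in Nfat5IEC-KO and -1.72 in Nfat5fl/fl mice. Its group means were all dim, at 3.12 to 4.96. The kinase genes Wnk4 and Stk39 were lower in the ileum, as Slc12a2 was, with differences of -1.31 and -1.17 in Nfat5IEC-KO mice and -0.94 and -0.87 in Nfat5fl/fl mice. In the creatine list 0 genes were called higher in the ileum by limma, while 4 in Nfat5IEC-KO and 3 in Nfat5fl/fl mice were called lower, among them Gatm, the enzyme of the first step of creatine synthesis (-0.72 in Nfat5IEC-KO and -0.70 in Nfat5fl/fl mice). Slc6a8 itself had the opposite sign. Group means of Gatm were low, at 4.10 to 5.03. Slc1a4 and Slc1a5, which carry neutral amino acids, were lower in the ileum, with differences of -1.86 and -1.71 in Nfat5IEC-KO mice and -1.80 and -0.88 in Nfat5fl/fl mice. The limma adjusted p of the related genes named for this comparison was at most 0.0186.

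The genes whose values over the 12 arrays were most like each member are given as a description, among 10292 clusters compared. Arrays share segment and genotype, and such correlations carry no test. Values of Slc5a3 were most like those of Etv5 (Pearson r = 0.992), Slc26a2 (0.984) and Arrdc3 (0.984), and those of Slc12a2 most like Txndc5 (0.992), Rpn1 (0.991) and Fastkd1 (0.991). Values of Slc6a6 were most like those of Top1 (0.958), Spen (0.950) and Plxna2 (0.937). Those of Slc6a8 were most like Siae (0.988), and of Slc14a1 most like Stk16 (0.979), while the dim Slc6a12 reached 0.863, with Pfdn5. With the mean of each segment taken off first, the nearest gene was Agr2 for Slc12a2 (0.995), a chaperone of mucus-producing cells, followed by Shmt1 (0.988) and Kcne3 (0.986). It was Ctns for Slc6a8 (0.952), Slc23a2 for Slc6a6 (0.943), Etv5 for Slc5a3 (0.925), Rplp0 for Slc6a12 (0.904) and Ctnnb1 for Slc14a1 (0.893).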

How the data were processed

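Values came from the authors' table of deposited log2 values per transcript cluster, made with Transcriptome Analysis Console (per the labels, with the mm10 build). Its version, the normalization and the background correction were not stated in the sources read. Of its 41345 clusters, 23525 had 1 gene symbol in the platform annotation, 1816 had several and 16004 had none. Each comparison was fitted with limma 3.58.1 in R 4.3.3 (lmFit, eBayes) on the 6 arrays of its groups, or on all 12 for the segment contrast (the genotype difference in S-IECs minus that in L-IECs), and p-values were adjusted by Benjamini-Hochberg over the 25341 clusters with a symbol. The design followed the labels alone. The scripts were tested on simulated data. All members were named whatever their values. From each related list up to 3 genes at an adjusted p under 0.05 by largest difference, or otherwise the 2 smallest p, could be named, with the 3 most similar genes of each member among clusters with a mean of at least 5. Members, lists and rules were chosen with earlier results of these data known.

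The precision is limited by 3 arrays a group, with which an exact permutation test of 1 gene cannot go below p = 0.1. The labels number the mice without giving preparation or scan days, so no batch could be examined. A limma p-value sets a difference against the spread between arrays within groups, moderated across clusters. Mouse, preparation and array cannot be told apart in that spread. Alternatives were a replicate block, all arrays in 1 fit, trend and robust moderation, array weights, quantile normalization, median centring, a filter on dim clusters (mean under 5), every cluster, the methods' t-test, and leaving out each array, with leaving out the S-IEC Nfat5fl/fl arrays high in colonic markers added after seeing the data.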

Additional observations from a re-analysis of the deposited data

Results flagged for a closer look

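For Slc12a2 the KO arrays lay on opposite sides of their controls in the segments. All 3 S-IEC arrays labelled Nfat5IEC-KO lay below their Nfat5fl/fl arrays, and all 3 Nfat5IEC-KO L-IEC arrays lay above theirs. The L-IEC difference was 0.10, with a 95% interval of -0.11 to 0.32 that includes 0 (limma adjusted p = 0.890). The S-IEC difference minus the L-IEC difference was -0.963 (limma adjusted p = 0.258). Lower in S-IECs and higher in L-IECs without overlap held for 167 clusters, or 0.659% of all clusters tested. Groups of 3 are too small for the test of a single outlying array.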

How the results depend on the processing

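In S-IECs the number of members with an adjusted p under 0.05 by limma, 0 as reported, was 3 with all 12 arrays in 1 fit (2.25% of all clusters called), 2 with trend and robust moderation (1.89%) and 1 with the filter on dim clusters (Slc6a6, adjusted p = 0.04996, 2.19%). It was 0 to 1 when 1 array was left out, the 1 being Slc12a2 without Nfat5IEC-KO replicate 2 (0.892%). In L-IECs it was 1 with trend and robust moderation (0.0513%) and 0 to 0 when 1 array was left out. Between segments it was 3 in Nfat5fl/fl mice by the methods' t-test (12.2%), which lost Slc6a8 and Slc12a2, and 4 to 5 when 1 array was left out. In Nfat5IEC-KO mice it was 3 with every cluster tested (14.3%), which lost Slc6a6 and Slc14a1, and 3 to 5 when 1 array was left out. For the segment contrast of the genotype difference it was 0 to 1 when 1 array was left out, the 1 being without S-IEC KO replicate 2 (0.943%). With Nfat5fl/fl S-IEC replicates 2 and 3 both left out, a setting chosen after seeing the data, it was 0 in S-IECs (0%), 2 between segments in Nfat5fl/fl mice (9.80%) and 0 for the segment contrast (0%). The causes were not tested.

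Signs reversed only when arrays were left out, and only for values near 0. In S-IECs without KO replicate 1, Slc14a1 became 0.0553 and Slc6a12 -0.0324, with ranges of -0.184 to 0.0553 and -0.0324 to 0.1002 over the arrays left out. In L-IECs Slc6a8 became 0.0698 without Nfat5fl/fl replicate 3 and 0.0079 without KO replicate 3, in a range of -0.130 to 0.0698. Between segments in Nfat5fl/fl mice Slc6a12 became positive without S-IEC replicate 2, L-IEC replicate 1 or L-IEC replicate 3, in a range of -0.0477 to 0.0197. The segment contrast of Slc6a6 became 0.0139 without L-IEC Nfat5fl/fl replicate 3 and 0.0153 without L-IEC KO replicate 1, in a range of -0.130 to 0.0153. With both Nfat5fl/fl S-IEC arrays left out, Slc14a1 became 0.0890 in S-IECs and 0.0312 in the segment contrast, Slc6a12 became 0.00412 between segments in Nfat5fl/fl mice, and the segment contrast of Slc6a6 became 0.0509. Of the single-gene values under the settings that kept all arrays, 241 kept direction and side of the threshold, 7 came to pass it and 5 no longer passed it.

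Same-numbered arrays did not deviate together, with correlations of -0.04 to 0.10, so the numbers were not read as pairs. Such correlations cannot show whether 1 mouse gave both segments, in which case the comparisons of segments would leave out a pairing. With the replicate number as a block the members called were 0 in S-IECs, 0 in L-IECs, 5 in each comparison of segments and 0 for the segment contrast. Every member had 1 cluster, so no other cluster could be tried, Slc6a12 had no value under the filter on dim clusters, and neither the t-test nor the fit of all 12 arrays applied to the segment contrast. Medians of all clusters moved by less than 0.1 under either scaling.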
